A study of Mus musculus with 9 samples.

Results

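The genes described here encode subunits of the mitochondrial respiratory chain (complexes I to IV) and of the ATP synthase (complex V), with a few closely named proteins. They were chosen by gene symbol alone: Nduf followed by a, b, c, s or v and a number for complex I, Sdha to Sdhd for complex II, Uqcr for complex III, Cox4 to Cox8 followed by a, b or c for complex IV, and Atp5 for complex V. No Cox4 gene matched this form. Of 19938 genes with a single symbol on the array, 78 matched: 34 of complex I, 4 of complex II, 8 of complex III, 15 of complex IV and 17 of complex V. They were covered by 102 rows of the table, and each of the 16 genes with several rows was represented by its brightest row over the 9 arrays.

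Complexes I to IV pass electrons from NADH and succinate through ubiquinone and cytochrome c to oxygen and, except for complex II, pump protons across the inner mitochondrial membrane. The ATP synthase lets protons flow back through a rotating ring of c subunits and uses the turning to make ATP. The subunits other than those encoded by mitochondrial DNA, which include all genes described here, are made from nuclear genes, translated in the cytosol and imported, and most belong to proteins that every cell with mitochondria uses.

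The study asked which genes respond when HSF1, the main transcription factor of the heat shock response, or RPA1, a subunit of replication protein A, which coats single-stranded DNA, is depleted. Immortalized mouse embryonic fibroblasts (MEFs) of ICR background were infected with adenovirus carrying an shRNA against HSF1, an shRNA against RPA1 or a scrambled shRNA, with 3 arrays in each of the 3 groups. All 9 samples, controls included, therefore came from immortalized and virus-infected cells, exposed for 2 h and cultured for another 70 h. Whether arrays of 1 group came from separate cultures is not stated in the labels, so p-values reflect the spread between these samples only, which may be technical.

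Values were log2 signals from Affymetrix Mouse Gene 1.0 ST arrays, with array medians between 7.72 and 7.81. The Rpa1 signal averaged 9.39 ± 0.04 under RPA1 shRNA, 11.33 ± 0.02 under HSF1 shRNA and 11.41 ± 0.01 under scrambled shRNA (SD, n = 3 each), a 4.05-fold lower signal with RPA1 shRNA. The Hsf1 transcript was not analysed here. RPA1 shRNA array 3 stood apart: among genes that differed at least 2-fold from the controls on the other arrays of its group, its median difference was 0.675 times theirs, against 1.08 for array 1 and 1.06 for array 2, and results that rest on it are also given without it. Of 10 fibroblast markers, 8 lay above the median gene. Their mean level was 10.70 to 10.81 under HSF1 shRNA, 10.23 to 10.42 under RPA1 shRNA and 10.85 to 10.92 under scrambled shRNA, with 4 of 10 lower and 1 of 10 (S100a4, by 1.16 on the log2 scale, adjusted p = 0.00267 in limma) higher under HSF1 shRNA, and 7 of 10 lower under RPA1 shRNA. The macrophage and blood cell list lay at 7.04 to 7.07 under HSF1 shRNA, 7.23 to 7.29 under RPA1 shRNA and 6.76 to 6.89 under scrambled shRNA, with 1 of 8 markers above the median gene, 2 of 8 higher under HSF1 shRNA and 3 of 8 under RPA1 shRNA. Its median difference under RPA1 shRNA was 0.15, and Cd68, singled out after its values were seen, differed by 2.06 (adjusted p = 2.82e-05 in limma). For scale, 9.89% of all tested genes were called higher and 6.21% lower under HSF1 shRNA, and 15.4% and 14.7% under RPA1 shRNA. The part of these marker shifts in the results below was not tested. In bulk RNA, fewer cells of a type and less RNA per cell cannot be told apart.

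Both knockdowns left the large majority of respiratory genes without a called change, and those that were called moved by modest amounts in both directions. Under HSF1 shRNA, 6 of 78 genes rose and 4 fell relative to scrambled shRNA, where 9.89% of all tested genes rose and 6.21% fell. Under RPA1 shRNA, 6 rose and 7 fell, against 15.4% and 14.7% of all tested genes. Calls rest on an adjusted p under 0.05 in limma, with Benjamini-Hochberg adjustment over all 19938 genes. The called shares of the respiratory genes, 7.69% and 5.13% under HSF1 shRNA and 7.69% and 8.97% under RPA1 shRNA, were below those of all genes in each direction with the values as deposited. For rises under HSF1 shRNA the order turned in 7 of 19 alternatives, among them median scaling (15.4% of the respiratory genes beside 11.7% of all), the intensity trend (14.1% beside 10.5%) and omission of RPA1 shRNA array 3 (15.4% beside 14.4%). For falls under RPA1 shRNA it turned in 2, with array weights (23.1% beside 22.6%) and without RPA1 shRNA array 3 (17.9% beside 17.8%). For those counts the order depended on the setting, and they are not read as a result about these genes. For rises under RPA1 shRNA and falls under HSF1 shRNA the share exceeded that of all genes in 0 of 19 alternatives. The alternatives reuse the same 9 arrays, so their number adds no independent support. The falls under HSF1 shRNA were near the share of all genes, with 6.41% beside 6.49% under the intensity trend. They too are not read as a result about these genes. The cause of the lower share of rises under RPA1 shRNA was not tested. All 72 genes other than the tissue-restricted isoforms of complex IV lay above the median gene in signal. Of these 72, 6.94% rose and 9.72% fell under RPA1 shRNA, where 21.7% and 24.5% of all genes above the median did so. Under HSF1 shRNA the shares were 8.33% and 5.56% of the 72, beside 15.1% and 10.9% of the genes above the median.

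**Figure D1:**
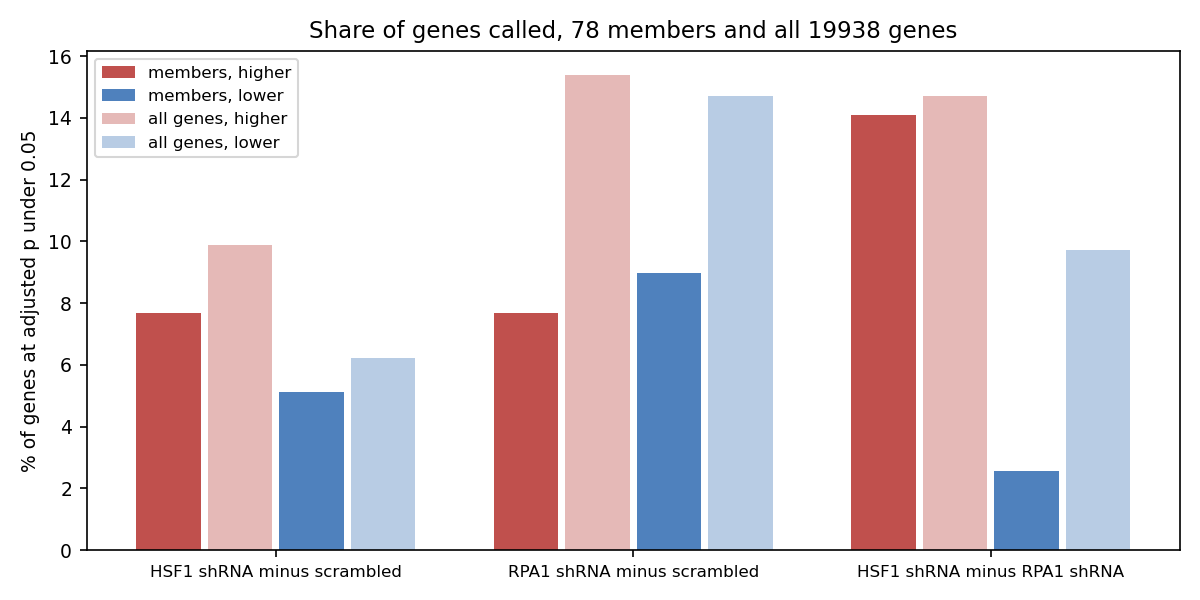
Percentage of genes called higher or lower at an adjusted p under 0.05 in each of the 3 comparisons, for the 78 respiratory genes (dark bars) and for all 19938 tested genes (pale bars). The dark bars are below their pale counterparts in all 3 comparisons, least so for genes higher with HSF1 shRNA than with RPA1 shRNA, at 14.1% and 14.7%; this order turned under some alternatives for the rises under HSF1 shRNA, the falls under RPA1 shRNA and the genes higher in the direct comparison.

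The differences were small. Under HSF1 shRNA they ran from -0.34 to 0.55 on the log2 scale with a median of 0.07, where the median of all genes was 0.04, and 60 of 78 were above 0, as were 62% of all genes. Under RPA1 shRNA they ran from -0.49 to 0.75 with a median of 0.00, beside 0.02 for all genes, and 39 of 78 were above 0. A single called difference reached 1.5-fold, that of Cox7a1 under RPA1 shRNA. The standard errors were 0.04 to 0.21 with a median of 0.06. Of the 68 genes not called under HSF1 shRNA, 51 had a 95% interval that lay wholly within 1.25-fold of the control level, and so did 51 of the 65 not called under RPA1 shRNA. For the remaining 17 and 14 genes the interval reached beyond 1.25-fold, so a change of that size was not excluded with 3 arrays a group. Unlike the calls, these intervals are not adjusted for the number of genes. Some of them left out 0, as did that of Cox5a under HSF1 shRNA (0.06 to 0.35). With 3 arrays a side the smallest exact permutation p is 0.1, so the calls depend on limma's variance estimate, which borrows across genes.

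**Figure D2:**
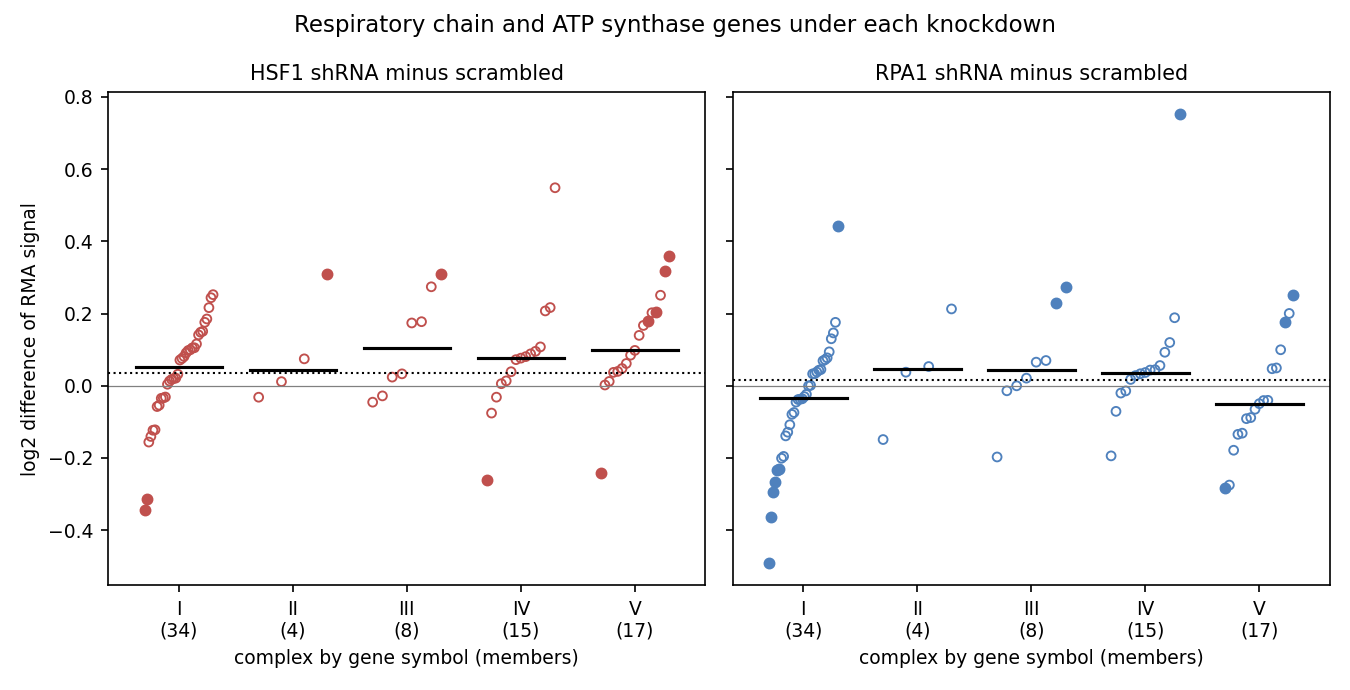
Log2 difference of each respiratory gene under HSF1 shRNA (left) and RPA1 shRNA (right) relative to scrambled shRNA, sorted within complexes I to V, with the number of genes in brackets. Filled points were called at an adjusted p under 0.05, short lines are the median of a complex and the dotted line is the median of all tested genes. Most points lie close to 0 in both panels, and the called genes of complex V are mostly above 0 under HSF1 shRNA, while those of complex I are mostly below 0 under RPA1 shRNA.

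In 5 genes the call was the same under both knockdowns: Atp5g1, Atp5j2 and Uqcrfs1 were higher and Atp5g2 and Ndufa6 lower in each. The 2 comparisons share the scrambled arrays, so each gene's values are given side by side and the pair is not counted as independent evidence. None was called in opposite directions, and 60 of 78 were called in neither. The 5 genes include 2 that encode the same protein, the c subunit of the ATP synthase rotor, which Atp5g1, Atp5g2 and Atp5g3 all encode with different mitochondrial targeting sequences that are removed after import.

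Atp5g1 had log2 signals of 13.39, 13.27 and 13.35 under HSF1 shRNA and 13.39, 13.39 and 13.44 under RPA1 shRNA, against 13.13, 13.20 and 13.14 under scrambled shRNA. All 6 knockdown arrays were above all 3 control arrays. The differences were 0.18 ± 0.05 (SE, adjusted p = 0.035 in limma) under HSF1 shRNA and 0.25 ± 0.05 (adjusted p = 0.00387) under RPA1 shRNA. Atp5g2 moved the other way, with 13.22, 13.14 and 13.10 under HSF1 shRNA and 13.14, 13.09 and 13.10 under RPA1 shRNA, against 13.37, 13.39 and 13.42 under scrambled shRNA. Again no knockdown array overlapped the controls, with differences of -0.24 ± 0.05 (adjusted p = 0.00923) and -0.28 ± 0.05 (adjusted p = 0.00186). All 3 rows annotated to Atp5g2 were lower in both comparisons, although rows of one gene can read near-identical copies elsewhere in the genome that cannot be told apart here. The third gene, Atp5g3, had 13.12, 13.13 and 13.05 under HSF1 shRNA and 12.80, 12.76 and 13.06 under RPA1 shRNA, against 13.04, 13.07 and 13.04 under scrambled shRNA. Its RPA1 shRNA arrays 1 and 2 were below every other array and array 3 lay within the control range. Atp5g3 was not called in either comparison (0.05, adjusted p = 0.733, and -0.18 ± 0.07, adjusted p = 0.106), but without RPA1 shRNA array 3 the second difference was -0.27 (adjusted p = 0.00157). The c subunit genes thus included 1 that rose, 1 that fell and 1 not called under each knockdown. The call of Atp5g1 under HSF1 shRNA was lost without scrambled array 1, 2 or 3, HSF1 shRNA array 1 or 3 or RPA1 shRNA array 1 (adjusted p = 0.0501 to 0.112).

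The remaining genes with the same call in both comparisons belong to 3 complexes. Uqcrfs1 encodes the Rieske iron-sulfur protein of complex III, which takes electrons from ubiquinol. It had 9.89, 9.82 and 9.80 under HSF1 shRNA and 9.74, 9.83 and 9.71 under RPA1 shRNA, against 9.48, 9.54 and 9.57 under scrambled shRNA. No array of either knockdown overlapped the controls, and the differences were 0.31 ± 0.05 (adjusted p = 0.00429) and 0.23 ± 0.05 (adjusted p = 0.00859). Ndufa6, an accessory subunit of the matrix arm of complex I, had 11.16, 11.08 and 10.91 under HSF1 shRNA and 11.03, 11.06 and 10.92 under RPA1 shRNA, against 11.32, 11.41 and 11.36 under scrambled shRNA. The knockdown arrays were all below the controls, with differences of -0.31 ± 0.07 (adjusted p = 0.0137) and -0.36 ± 0.07 (adjusted p = 0.00328). The first of these calls was lost without scrambled array 2 (-0.29, adjusted p = 0.0548). Atp5j2, which encodes subunit f in the membrane part of the ATP synthase, had 12.94, 12.91 and 12.83 under HSF1 shRNA and 12.87, 12.90 and 12.83 under RPA1 shRNA, against 12.67, 12.73 and 12.67 under scrambled shRNA. Its rises were small, 0.20 ± 0.05 (adjusted p = 0.0214) and 0.18 ± 0.05 (adjusted p = 0.0228), with no overlap. Both were lost without scrambled array 1 or 3, and without array 1 or 2 of the knockdown concerned (adjusted p = 0.0635 to 0.0783).

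**Figure D3:**
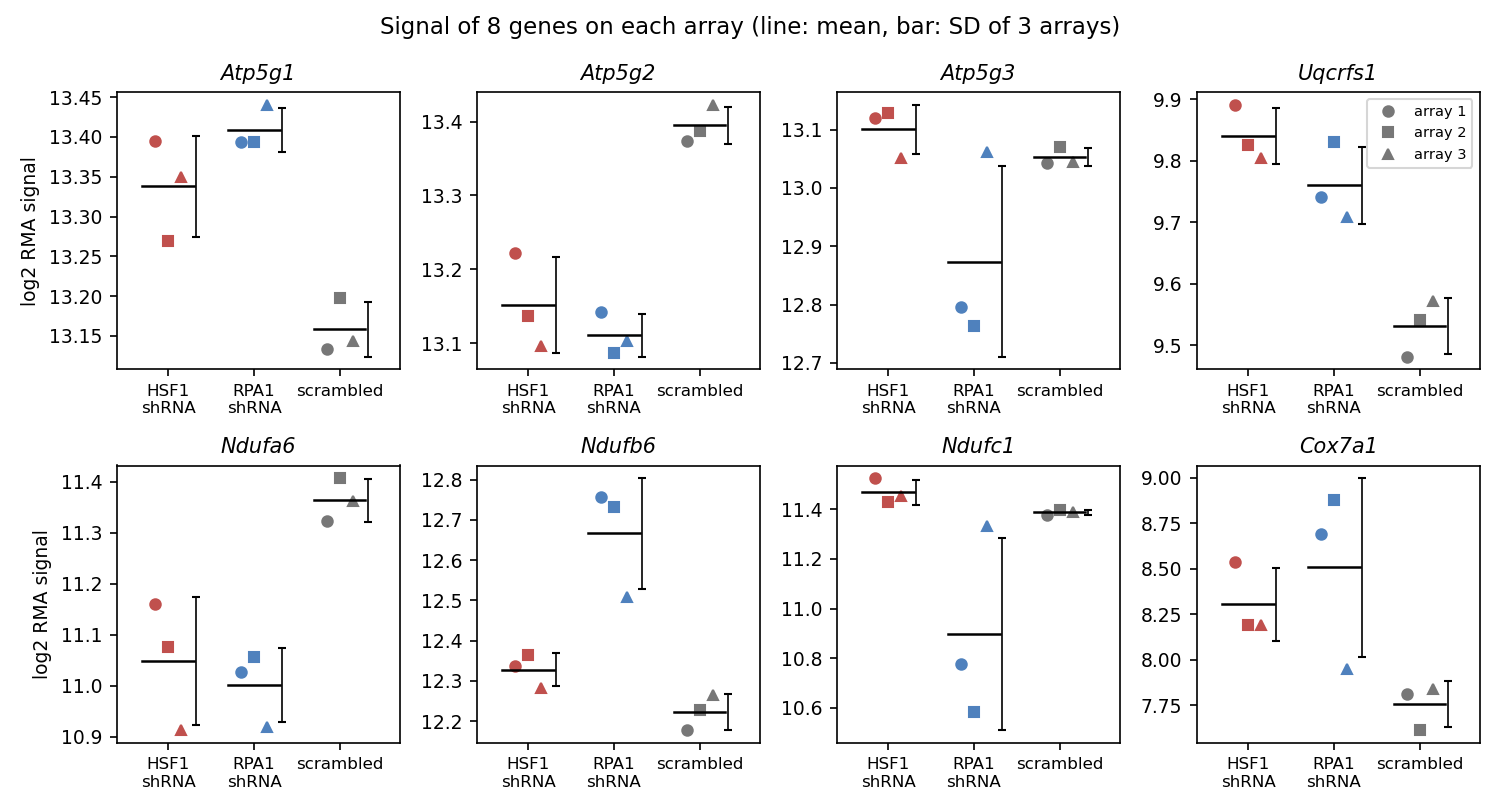
Log2 RMA signal of 8 genes on each of the 9 arrays, grouped as HSF1 shRNA, RPA1 shRNA and scrambled shRNA, with the array number as the point shape, the mean as a line and the SD of 3 arrays as a bar; the vertical scale differs by gene and does not start at 0. Atp5g1 and Uqcrfs1 are above the controls and Atp5g2 and Ndufa6 below them on all 6 knockdown arrays, while RPA1 shRNA array 3 lies away from arrays 1 and 2 in Atp5g3, Ndufb6, Ndufc1 and Cox7a1.

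Promoters were read for these 5 genes because they moved under both knockdowns. The sequences below are RefSeq promoters of assembly GRCm38.p6, all on the minus strand, 5′ to 3′, ending at the base before the transcript start. For Atp5g1 a longer annotated transcript begins 63 bases further out, and its sequence ends before that start. The positions are chr11:96075695-96075881 for Atp5g1, chr15:102671048-102671297 for Atp5g2, chr15:82354292-82354541 for Ndufa6, chr5:145191542-145191791 for Atp5j2 and chr13:30545317-30545566 for Uqcrfs1. Capitals mark matches to the core of the palindromic site of NRF1, a transcription factor known to act on many respiratory genes, searched as GCATGCGC on both strands.
Atp5g2: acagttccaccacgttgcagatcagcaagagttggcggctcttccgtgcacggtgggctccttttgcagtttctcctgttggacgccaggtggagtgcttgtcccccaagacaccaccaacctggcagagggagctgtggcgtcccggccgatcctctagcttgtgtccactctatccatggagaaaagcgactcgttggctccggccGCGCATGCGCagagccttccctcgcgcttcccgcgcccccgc
Ndufa6: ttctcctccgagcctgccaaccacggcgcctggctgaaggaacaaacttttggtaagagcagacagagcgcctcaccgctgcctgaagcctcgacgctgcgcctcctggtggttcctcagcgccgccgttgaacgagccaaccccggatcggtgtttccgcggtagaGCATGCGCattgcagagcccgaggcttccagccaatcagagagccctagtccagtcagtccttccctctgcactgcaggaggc
Atp5g1: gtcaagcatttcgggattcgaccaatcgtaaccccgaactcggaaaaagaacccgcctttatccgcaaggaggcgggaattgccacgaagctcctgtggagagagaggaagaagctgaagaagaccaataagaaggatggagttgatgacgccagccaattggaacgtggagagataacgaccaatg
Atp5j2: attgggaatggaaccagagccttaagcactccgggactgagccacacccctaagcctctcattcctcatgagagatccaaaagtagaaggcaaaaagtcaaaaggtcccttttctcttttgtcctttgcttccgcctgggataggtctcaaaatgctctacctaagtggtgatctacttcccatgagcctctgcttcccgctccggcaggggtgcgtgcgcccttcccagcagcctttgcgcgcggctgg
Uqcrfs1: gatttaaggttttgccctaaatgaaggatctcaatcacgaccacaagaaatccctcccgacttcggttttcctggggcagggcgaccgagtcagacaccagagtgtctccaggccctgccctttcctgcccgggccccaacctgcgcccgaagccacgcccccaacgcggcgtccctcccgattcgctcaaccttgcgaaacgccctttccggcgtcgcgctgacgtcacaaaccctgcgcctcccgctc
The 2 genes that fell under both knockdowns held the NRF1 core, Atp5g2 as 2 overlapping matches at positions -42 to -35 and -40 to -33 and Ndufa6 at -83 to -76, and the 3 that rose had none in the bases shown. Atp5k and Atp5l, which rose under HSF1 shRNA, also held the NRF1 core in their promoters, so it did not separate genes by direction. A match is a description of letters and not a test of binding.

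RefSeq promoters, 250 bases before to 50 after the start, were found for 66 of the 78 genes. The NRF1 core was in 10 of 66 (15.2%), beside 3.05% of all 27025 genes with a RefSeq promoter. A gene with several promoters was counted if any of them held a match. The core of ETS family and GABP sites, searched as CCGGAAG, was in 17 (25.8%), beside 9.93% of all. The core of the YY1 site, AAGATGGC, was in 10 (15.2%), beside 3.19% of all, and among the 5 genes above it lay only in Atp5j2, after the start. A head-to-head or tail-to-tail pair of heat shock factor units, searched as GAANNTTC or TTCNNGAA, was in 7 (10.6%), beside 17.0% of all. It was in none of those 5 genes. Matches of different motifs can share letters, since the ETS core ends and the YY1 core begins with AAG.

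Complex I is the largest of the 5 groups. Of its 34 genes, 0 rose and 2 fell under HSF1 shRNA, and 1 rose and 6 fell under RPA1 shRNA. Groups follow gene symbols, so the 34 include Ndufa4, since found in complex IV. The falls under HSF1 shRNA were 5.88% of the complex, beside 6.21% of all genes. In that comparison 9 of 34 were at an unadjusted p under 0.05 in limma, beside 5697 of all 19938 genes. The share that fell under RPA1 shRNA, 17.6%, was near the 14.7% of all genes and below the 24.5% of genes above the median. The medians were 0.05 under HSF1 shRNA, or 0.02 to 0.09 on leaving out 1 array, and -0.03 under RPA1 shRNA, or -0.05 to 0.01. The 6 core subunits present, of the set that includes the proteins binding the flavin and the iron-sulfur clusters, had medians of -0.04 under both knockdowns, and Ndufv1 under RPA1 shRNA was the only one called in either.

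Ndufb7, a subunit of the membrane arm on the intermembrane side, fell under HSF1 shRNA. Its signals were 10.12, 10.03 and 9.92 under HSF1 shRNA and 10.21, 10.41 and 10.35 under RPA1 shRNA, against 10.36, 10.46 and 10.29 under scrambled shRNA. Only the HSF1 shRNA arrays lay wholly below the controls, with a difference of -0.34 ± 0.07 (adjusted p = 0.0129), while the RPA1 shRNA difference was -0.05 (adjusted p = 0.71). The direct difference, HSF1 shRNA minus RPA1 shRNA, was -0.30 ± 0.07 (adjusted p = 0.017). The HSF1 shRNA call was lost without scrambled array 2 (adjusted p = 0.0534) or HSF1 shRNA array 3 (adjusted p = 0.0521), and the direct call without HSF1 shRNA array 3 (adjusted p = 0.0618) or RPA1 shRNA array 2 (adjusted p = 0.0619).

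Ndufb6, another membrane arm subunit, was the complex I gene that rose under RPA1 shRNA. It had 12.34, 12.36 and 12.28 under HSF1 shRNA and 12.76, 12.73 and 12.51 under RPA1 shRNA, against 12.18, 12.23 and 12.27 under scrambled shRNA. The 3 RPA1 shRNA arrays were above all other arrays. The rise under RPA1 shRNA was 0.44 ± 0.07, or 1.36-fold (adjusted p = 0.00106), that under HSF1 shRNA was 0.10 (adjusted p = 0.367), and the direct difference was -0.34 ± 0.07 (adjusted p = 0.00655). The other 6 complex I genes called under RPA1 shRNA were lower.

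Ndufc1, a small membrane arm subunit, had the largest fall, and it rested on 2 arrays. Its signals were 11.53, 11.43 and 11.45 under HSF1 shRNA and 10.78, 10.58 and 11.33 under RPA1 shRNA, against 11.38, 11.40 and 11.39 under scrambled shRNA. RPA1 shRNA arrays 1 and 2 were far below every other array, and array 3 was just below the controls. The difference was -0.49 ± 0.15, or 1.41-fold lower (adjusted p = 0.0351), and -0.71 (adjusted p = 3.69e-05) without RPA1 shRNA array 3. Leaving out any other array ended the call (adjusted p = 0.0532 to 0.115). A second row of Ndufc1 gave -0.47 under RPA1 shRNA. Against HSF1 shRNA the direct difference was 0.57 ± 0.15 (adjusted p = 0.0224), and 0.79 (adjusted p = 2.75e-05) without RPA1 shRNA array 3. That direct call was lost without any 1 of the 3 HSF1 shRNA arrays or without RPA1 shRNA array 1 or 2 (adjusted p = 0.0576 to 0.0842).

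The rest of these 6 falls were smaller. Ndufa13, a subunit near the junction of both arms, had 11.04, 10.97 and 10.98 under HSF1 shRNA and 10.80, 10.91 and 10.81 under RPA1 shRNA, against 11.19, 11.19 and 11.03 under scrambled shRNA. The RPA1 shRNA arrays did not overlap the controls, with a difference of -0.29 ± 0.06 (adjusted p = 0.0043), and the HSF1 shRNA difference was -0.14 (adjusted p = 0.15). Ndufb10, a membrane arm subunit, had 8.68, 8.69 and 8.60 under RPA1 shRNA, against 8.91, 8.93 and 8.94 under scrambled shRNA, a difference of -0.27 ± 0.05 (adjusted p = 0.00208), while HSF1 shRNA arrays had 8.86, 8.91 and 8.83. Its HSF1 shRNA values were at or just below the controls and above all RPA1 shRNA values, with a direct difference of 0.21 ± 0.05 (adjusted p = 0.0104). Ndufv1, the core subunit that binds NADH and the flavin, had 11.46, 11.60 and 11.56 under RPA1 shRNA, against 11.76, 11.83 and 11.71 under scrambled shRNA. The groups did not overlap and differed by -0.23 ± 0.05 (adjusted p = 0.00862), and the HSF1 shRNA difference was -0.12 (adjusted p = 0.156). Ndufb5 had 11.09, 11.17 and 11.33 under RPA1 shRNA, against 11.40, 11.43 and 11.45 under scrambled shRNA, a difference of -0.23 ± 0.06 (adjusted p = 0.0175) that was lost without scrambled array 2 or 3 or RPA1 shRNA array 1 or 2 (adjusted p = 0.0528 to 0.0637).

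Complex II, the succinate dehydrogenase shared with the citric acid cycle, had 1 call among its 4 genes. This is 25% higher under HSF1 shRNA, beside 9.89% of all genes. Sdhd, which anchors the enzyme in the membrane and helps to bind ubiquinone, had 12.02, 11.88 and 11.80 under HSF1 shRNA and 11.72, 11.86 and 11.83 under RPA1 shRNA, against 11.56, 11.72 and 11.49 under scrambled shRNA. HSF1 shRNA arrays were all above the controls, by 0.31 ± 0.08 (adjusted p = 0.0248), and the lowest RPA1 shRNA array met the highest control, with a difference of 0.21 ± 0.08 (adjusted p = 0.0684). The HSF1 shRNA call was lost without scrambled array 1 or 3 or HSF1 shRNA array 1 or 2 (adjusted p = 0.0654 to 0.1). The catalytic subunit Sdha differed by 0.01 under HSF1 shRNA and 0.05 under RPA1 shRNA, neither called.

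In complex III, 1 of 8 genes rose under HSF1 shRNA and 2 rose under RPA1 shRNA, with none lower in either comparison. The rises made up 12.5% and 25% of the complex, beside 9.89% and 15.4% of all genes. Its median difference was 0.10 under HSF1 shRNA, as in complex V, and 0.04 under RPA1 shRNA. At an unadjusted p under 0.05 in limma there were 3 of 8 in each, beside 5697 and 7855 of all 19938 genes. Besides Uqcrfs1, Uqcrq, a small subunit near the ubiquinone site, rose under RPA1 shRNA. It had 11.11, 11.06 and 10.89 under HSF1 shRNA and 11.10, 11.20 and 11.05 under RPA1 shRNA, against 10.75, 10.90 and 10.88 under scrambled shRNA. The RPA1 shRNA arrays lay above the controls by 0.27 ± 0.07 (adjusted p = 0.0184), a call lost without scrambled array 1 (adjusted p = 0.0735) or RPA1 shRNA array 2 (adjusted p = 0.0652). HSF1 shRNA array 3 fell within the control range and that difference was 0.18 (adjusted p = 0.142). The structural core proteins Uqcrc1 and Uqcrc2 differed by -0.03 and 0.02 under HSF1 shRNA and by 0.07 and 0.02 under RPA1 shRNA, none of them called.

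In complex IV, 0 of 15 genes rose and 1 fell under HSF1 shRNA, and 1 rose and 0 fell under RPA1 shRNA. The fall was 6.67% of the complex, beside 6.21% of all genes, and the rise 6.67%, beside 15.4%. At an unadjusted p under 0.05 in limma there were 5 and 3 of 15 genes, beside 5697 and 7855 of all 19938. Cox7a2l, a protein related to a complex IV subunit and known to help join complexes III and IV into supercomplexes, had 9.60, 9.48 and 9.42 under HSF1 shRNA and 9.65, 9.63 and 9.42 under RPA1 shRNA, against 9.71, 9.82 and 9.75 under scrambled shRNA. All 6 knockdown arrays were below the controls. The difference of -0.26 ± 0.07 (adjusted p = 0.0387) was called under HSF1 shRNA and that of -0.19 ± 0.07 (adjusted p = 0.0758) under RPA1 shRNA was not. The call under HSF1 shRNA was lost without scrambled array 1, 2 or 3 or HSF1 shRNA array 2 or 3 (adjusted p = 0.0741 to 0.136). A second row of Cox7a2l, fitted with every row as its own unit, was lower under both, with differences of -0.40 (adjusted p = 0.00597) and -0.49 (adjusted p = 0.000893).

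Among the tissue-restricted isoforms of complex IV, Cox7a1 was the only 1 of 6 called. Cox7a1 is the form of subunit VIIa found mainly in heart and skeletal muscle. It had 8.54, 8.19 and 8.19 under HSF1 shRNA and 8.69, 8.88 and 7.95 under RPA1 shRNA, against 7.81, 7.61 and 7.84 under scrambled shRNA. All knockdown arrays were above the controls, RPA1 shRNA array 3 by the least. The RPA1 shRNA difference was 0.75 ± 0.21, or 1.68-fold (adjusted p = 0.0214), and 1.03 (adjusted p = 0.000151) without RPA1 shRNA array 3. That call was lost without scrambled array 1 or 2 or RPA1 shRNA array 1 or 2 (adjusted p = 0.0534 to 0.0818). The HSF1 shRNA difference of 0.55 ± 0.21 was not called (adjusted p = 0.112), but was with RPA1 shRNA array 3 left out of the shared variance estimate (adjusted p = 0.00579). Muscle markers lay at mean levels of 7.61 to 7.69 under HSF1 shRNA, 7.67 to 7.68 under RPA1 shRNA and 7.52 to 7.58 under scrambled shRNA, with 1 of 7 higher under HSF1 shRNA, 2 of 7 higher under RPA1 shRNA and 1 of 7 above the median gene. Of all genes, 9.89% rose under HSF1 shRNA and 15.4% under RPA1 shRNA. The part of the muscle markers in the Cox7a1 result was not tested. The other 5 isoforms, Cox6a2 (muscle), Cox6b2 (testis), Cox7b2, Cox8b (muscle) and Cox8c (testis), differed by -0.08 to 0.08 from scrambled shRNA under either knockdown.

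The ATP synthase held 4 of the 6 rises under HSF1 shRNA, all in its membrane part. Of 17 genes, 4 rose and 1 fell under HSF1 shRNA and 16 of 17 differences were above 0, with a median of 0.10. Rises made up 23.5% of the complex, beside 9.89% of all genes and 15.1% of genes above the median, and 94.1% of its differences were above 0, beside 62% of all genes. Under RPA1 shRNA 2 rose and 1 fell, which is 11.8% and 5.88%, beside 15.4% and 14.7% of all genes. In that comparison 6 of 17 were above 0, beside 54.8% of all genes, and the median of the complex was -0.05. The 3 calls among small membrane subunits under HSF1 shRNA were Atp5j2, Atp5k and Atp5l, out of 5 such genes present. The 5 genes of the catalytic head and central stalk had 0 calls in limma under either knockdown and 0 at an unadjusted p under 0.05, and Atp5b, the catalytic beta subunit, differed by 0.04 and 0.05.

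Atp5k encodes subunit e, and Atp5l subunit g, which sit together where ATP synthase dimers bend the membrane. Atp5k had 9.86, 9.87 and 9.66 under HSF1 shRNA and 9.54, 9.73 and 9.64 under RPA1 shRNA, against 9.39, 9.48 and 9.44 under scrambled shRNA. All knockdown arrays exceeded the controls, by 0.36 ± 0.07 (adjusted p = 0.00827) under HSF1 shRNA and by 0.20 (adjusted p = 0.0595) under RPA1 shRNA, which was not called. The direct difference was 0.16 (adjusted p = 0.139), so the size of the rise under HSF1 shRNA was not shown to differ from that under RPA1 shRNA. Atp5l had 10.44, 10.48 and 10.27 under HSF1 shRNA and 10.06, 10.13 and 10.18 under RPA1 shRNA, against 10.02, 10.15 and 10.06 under scrambled shRNA. Only its HSF1 shRNA arrays stood above the controls, by 0.32 ± 0.07 (adjusted p = 0.0111), and all 6 rows annotated to Atp5l rose under HSF1 shRNA. The RPA1 shRNA difference was 0.05 (adjusted p = 0.644) and the direct difference 0.27 ± 0.07 (adjusted p = 0.0167). The direct call was lost without HSF1 shRNA array 1 or 2 or RPA1 shRNA array 1 (adjusted p = 0.0603 to 0.0664).

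**Figure D4:**
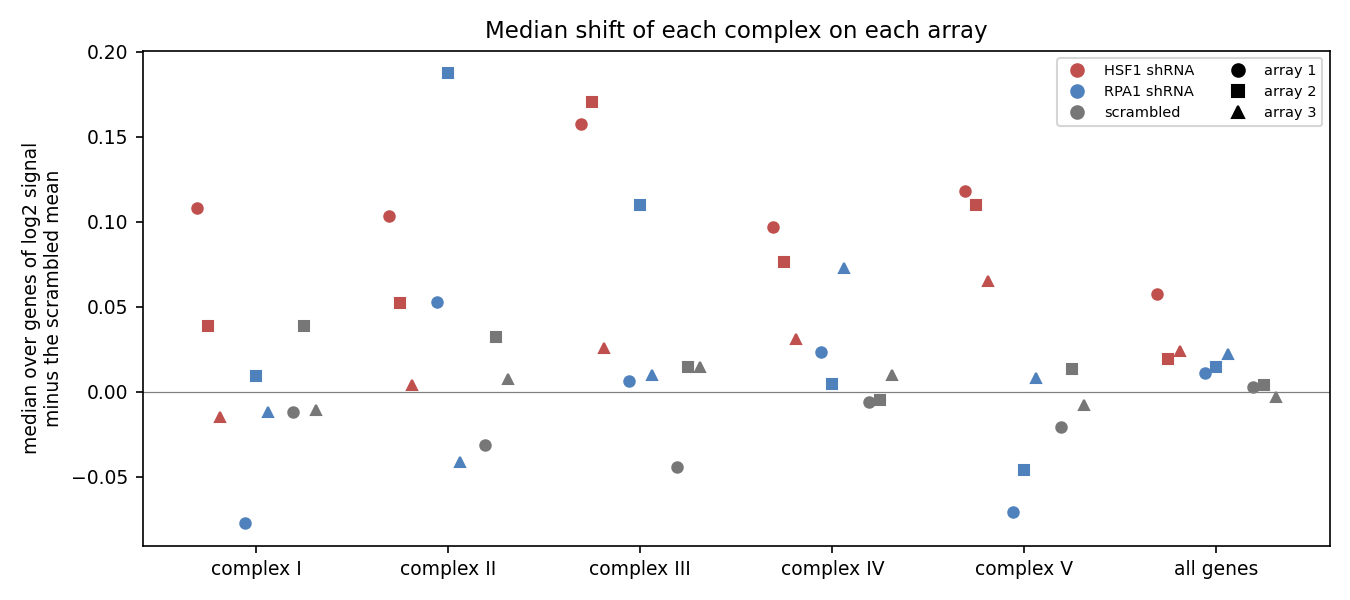
Median over the genes of each complex, and over all tested genes, of the log2 signal minus the scrambled mean of the same gene, for each of the 9 arrays; colour gives the group and shape the array number. In complex V the HSF1 shRNA arrays lie at 0.12, 0.11 and 0.07 and the RPA1 shRNA arrays at -0.07, -0.05 and 0.01, while all genes lie between 0.01 and 0.06 on the knockdown arrays.

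The array medians show how the complexes shifted in each sample. Complex V lay at 0.12, 0.11 and 0.07 on the HSF1 shRNA arrays and at -0.07, -0.05 and 0.01 on the RPA1 shRNA arrays, against -0.02, 0.01 and -0.01 on the scrambled arrays. Its HSF1 shRNA arrays were above all others. The HSF1 shRNA arrays were also above the scrambled arrays in complex III, at 0.16, 0.17 and 0.03, and in complex IV, at 0.10, 0.08 and 0.03. The highest scrambled array lay at 0.01 in each of these complexes. Complex I spread over 0.11, 0.04 and -0.01 under HSF1 shRNA and -0.08, 0.01 and -0.01 under RPA1 shRNA. These overlap, and in complexes II, III and IV at least 1 HSF1 shRNA array also lay within the range of the RPA1 shRNA arrays. Over all tested genes the arrays lay at 0.06, 0.02 and 0.02 under HSF1 shRNA and at 0.01, 0.01 and 0.02 under RPA1 shRNA.

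Set directly against RPA1 shRNA, HSF1 shRNA left 11 of 78 respiratory genes higher and 2 lower, where 14.7% of all tested genes were higher and 9.71% lower. The median difference was 0.05, beside 0.02 for all genes, and 57 of 78 were above 0, as were 56% of all genes. With each array scaled to the median of the tested genes, these medians were 0.003 and -0.02. Of the 72 respiratory genes above the median gene, 15.3% were higher and 2.78% lower, beside 23.6% and 14.6% of all genes above it. By complex, 6 of 34 were higher and 2 lower in complex I, 2 of 8 higher in complex III and 3 of 17 higher in complex V. In complexes II and IV 0 were called in limma and 0 were at an unadjusted p under 0.05. Complexes follow gene symbols here, so the 6 of complex I include Ndufa4, since found in complex IV. In complex V 15 of 17 differences (88.2%) were above 0, beside 56% of all genes, and the median was 0.13. The lower genes were Ndufb6 and Ndufb7. Without RPA1 shRNA array 3, 15 were higher and 5 lower (19.2% and 6.41%), beside 18.9% and 13.9% of all genes. Without array 1 of either knockdown 3 were higher (3.85%), beside 9.52% of all genes for HSF1 shRNA and 9.53% for RPA1 shRNA. Leaving out array 2 left 4 higher for HSF1 shRNA and 5 for RPA1 shRNA (5.13% and 6.41%), beside 11.4% and 11.1% of all genes. Without RPA1 shRNA array 2 or HSF1 shRNA array 3, 1 was lower (1.28%), beside 6.72% and 6.7% of all genes.

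Of the genes higher with HSF1 shRNA than with RPA1 shRNA, several were called in neither comparison with scrambled shRNA. Ndufv3, an accessory subunit beside the NADH site, had 9.85, 9.76 and 9.91 under HSF1 shRNA and 9.56, 9.54 and 9.39 under RPA1 shRNA, with 9.80, 9.65 and 9.63 under scrambled shRNA. The controls overlapped the HSF1 shRNA arrays and lay above all RPA1 shRNA arrays. The knockdown groups did not overlap and differed by 0.34 ± 0.07 (adjusted p = 0.00657). Atp5mpl, a small proteolipid bound to the ATP synthase, had 11.05, 11.11 and 10.89 under HSF1 shRNA and 10.62, 10.64 and 10.79 under RPA1 shRNA, a difference of 0.33 ± 0.07 (adjusted p = 0.0069), with 10.81, 10.83 and 10.81 under scrambled shRNA. The controls lay between the knockdown groups. Uqcr11, the smallest subunit of complex III, had 11.23, 11.22 and 11.02 under HSF1 shRNA and 10.66, 10.87 and 10.83 under RPA1 shRNA, a difference of 0.37 ± 0.09 (adjusted p = 0.0131), lost without HSF1 shRNA array 1 or 2 or RPA1 shRNA array 1 (adjusted p = 0.053 to 0.0534). Its scrambled arrays, at 10.89, 11.12 and 10.93, overlapped the HSF1 shRNA arrays and lay above all RPA1 shRNA arrays.

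Uqcrh, the hinge protein of complex III that helps cytochrome c to bind, had 11.57, 11.49 and 11.28 under HSF1 shRNA and 11.16, 11.21 and 11.10 under RPA1 shRNA. It differed by 0.29 ± 0.09 (adjusted p = 0.0397) without overlap, a call lost in 6 of 9 omissions of a single array, those of scrambled array 1, HSF1 shRNA arrays 1 and 2 and each RPA1 shRNA array (adjusted p = 0.059 to 0.14). Atp5j, coupling factor 6 of the peripheral stalk, had 13.24, 13.07 and 13.08 under HSF1 shRNA and 12.85, 12.94 and 12.97 under RPA1 shRNA, a difference of 0.21 ± 0.06 (adjusted p = 0.0291) that was lost without HSF1 shRNA array 1 or RPA1 shRNA array 1 or 2 (adjusted p = 0.0598 to 0.107). Both genes were higher on every HSF1 shRNA array than on any RPA1 shRNA array.

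Ndufa4, first assigned to complex I and since found in complex IV, had 11.77, 11.80 and 11.62 under HSF1 shRNA and 11.23, 11.22 and 11.62 under RPA1 shRNA, with 11.40, 11.58 and 11.48 under scrambled shRNA. RPA1 shRNA array 3 met the lowest HSF1 shRNA array, while arrays 1 and 2 were below all controls. The direct difference was 0.37 ± 0.11 (adjusted p = 0.0313), lost without scrambled array 3, HSF1 shRNA array 1 or 2 or RPA1 shRNA array 1 or 2 (adjusted p = 0.0512 to 0.116). Against scrambled shRNA it was 0.24 (adjusted p = 0.169) under HSF1 shRNA and -0.13 (adjusted p = 0.425) under RPA1 shRNA, and these were 0.24 (adjusted p = 0.0234) and -0.26 (adjusted p = 0.0182) without RPA1 shRNA array 3. Atp5pb, subunit b of the peripheral stalk, showed the same split among its RPA1 shRNA arrays, with 11.93, 11.86 and 12.46, beside 12.44, 12.47 and 12.46 under HSF1 shRNA and 12.34, 12.37 and 12.37 under scrambled shRNA. Its direct difference of 0.37 (adjusted p = 0.0645) was not called, and was 0.56 (adjusted p = 2.72e-05) without RPA1 shRNA array 3. Atp5pb was named after its values were seen, as were Atp5g3, Ndufb5, Ndufb10, Ndufv1, Ndufa1 and, below, Ndufab1. Ndufa1, a membrane arm subunit, differed by 0.28 ± 0.08 between the knockdowns (adjusted p = 0.0291), a call lost without HSF1 shRNA array 1 or 2 or RPA1 shRNA array 1 or 2 (adjusted p = 0.0813 to 0.108).

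Some genes work with the respiratory chain but fall outside the symbols used here. Cycs, the cytochrome c that carries electrons from complex III to IV, had 13.22, 13.29 and 13.30 under HSF1 shRNA and 13.50, 13.58 and 13.44 under RPA1 shRNA, against 13.03, 13.06 and 13.14 under scrambled shRNA. Its groups formed 3 separate ranges. The rise was 0.43 ± 0.05 (adjusted p = 0.000344) under RPA1 shRNA and 0.19 ± 0.05 (adjusted p = 0.04) under HSF1 shRNA, and the direct difference was -0.24 ± 0.05 (adjusted p = 0.0119), which was -0.13 (adjusted p = 0.0969) with the mean of all rows of Cycs. The smaller rise was lost in 7 of 9 omissions of a single array, all but those of RPA1 shRNA arrays 2 and 3 (adjusted p = 0.0527 to 0.131). Atpif1, the inhibitor that stops the ATP synthase from running backwards, had 13.41, 13.45 and 13.45 under RPA1 shRNA, against 13.73, 13.70 and 13.62 under scrambled shRNA, a difference of -0.25 ± 0.05 (adjusted p = 0.00366). In the list of 8 such genes, 1 rose and 0 fell under HSF1 shRNA and 3 rose and 1 fell under RPA1 shRNA. The shares were 12.5% and 0% under HSF1 shRNA, beside 9.89% and 6.21% of all genes. Under RPA1 shRNA they were 37.5% and 12.5%, beside 15.4% and 14.7%. The other rises under RPA1 shRNA were those of Ndufab1, the acyl carrier subunit of complex I, and Ndufa4l2, a relative of Ndufa4. Ndufab1 rose by 0.18 (adjusted p = 0.0497 in limma). That call was lost in 7 of 9 omissions of a single array, all but those of HSF1 shRNA arrays 1 and 3. Ndufa4l2 rose by 0.45 ± 0.12 (adjusted p = 0.0221). The Ndufa4l2 call was lost without scrambled array 1 or 3 or RPA1 shRNA array 1 or 2 (adjusted p = 0.0568 to 0.0819). The list of tissue-restricted isoforms outside the symbols had 3 genes tested, of which Ndufa4l2 alone was called. Of 26 mitochondrially encoded genes listed, 2 were tested, and ND3, a membrane subunit of complex I, was higher under RPA1 shRNA by 0.18 ± 0.06 (adjusted p = 0.0312), a call lost without any 1 of the scrambled arrays or RPA1 shRNA arrays 2 or 3 (adjusted p = 0.057 to 0.104).

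Assembly factors build the complexes without being part of them. Of 43 tested, 11 rose and 2 fell under HSF1 shRNA, and 11 rose and 7 fell under RPA1 shRNA, with medians of 0.07 and 0.09. Under HSF1 shRNA 25.6% rose and 4.65% fell, beside 9.89% and 6.21% of all genes and 15.1% and 10.9% of genes above the median. Under RPA1 shRNA these shares were 25.6% and 16.3%, beside 15.4% and 14.7% of all genes and 21.7% and 24.5% of genes above the median. Under RPA1 shRNA the largest rises were those of the heme A synthesis enzymes Cox15 (0.49 ± 0.08, adjusted p = 0.00164) and Cox10 (0.43 ± 0.06, adjusted p = 0.000345), and the largest falls those of the complex I assembly factors Ndufaf7 (-0.56 ± 0.10, adjusted p = 0.00229) and Ndufaf3 (-0.52 ± 0.08, adjusted p = 0.000967). Under HSF1 shRNA Coa7, a complex IV assembly factor (0.38 ± 0.06, adjusted p = 0.00342), and Sdhaf4, which helps to build complex II (0.37 ± 0.10, adjusted p = 0.0306), rose most. Bcs1l, which inserts the Rieske protein into complex III (-0.31 ± 0.07, adjusted p = 0.0204), and Ndufaf3 (-0.30 ± 0.08, adjusted p = 0.0278) fell. Leaving out scrambled array 1 ended the calls of Sdhaf4 (adjusted p = 0.0783), Bcs1l (adjusted p = 0.0614) and Ndufaf3 (adjusted p = 0.0607) under HSF1 shRNA, as did some other single omissions, and over the 9 omissions of a single array 3 to 12 of the 43 rose and 0 to 4 fell in that comparison. Under RPA1 shRNA 6 to 13 rose and 4 to 10 fell.

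Among 19 genes for the transcription of nuclear and mitochondrial respiratory genes, 1 rose and 1 fell under HSF1 shRNA and 2 rose and 5 fell under RPA1 shRNA. Under HSF1 shRNA the shares were 5.26% each, beside 9.89% and 6.21% of all genes. Under RPA1 shRNA they were 10.5% and 26.3%, beside 15.4% and 14.7% of all genes and 21.7% and 24.5% of genes above the median. Tfam, which packages and helps to transcribe mitochondrial DNA, had 9.88, 9.74 and 9.81 under HSF1 shRNA and 9.31, 9.39 and 9.29 under RPA1 shRNA, against 9.72, 9.76 and 9.73 under scrambled shRNA. All RPA1 shRNA arrays lay below all others, and the difference from scrambled shRNA was -0.41 ± 0.05 (adjusted p = 0.000344). HSF1 shRNA exceeded RPA1 shRNA by 0.48 ± 0.05 (adjusted p = 0.000322). Tfb1m, the methyltransferase of the mitochondrial small ribosomal RNA, was also lower under RPA1 shRNA (-0.53 ± 0.11, adjusted p = 0.00541). Lrpprc, which stabilises mitochondrial messenger RNAs, and Pprc1, a coactivator of the PGC family, were higher there (0.41 ± 0.06, adjusted p = 0.00105, and 0.32 ± 0.04, adjusted p = 0.000596). The coactivator Ppargc1b was lower under both, with differences of -0.40 ± 0.10 under HSF1 shRNA (adjusted p = 0.02) and -0.41 ± 0.10 under RPA1 shRNA (adjusted p = 0.0105), and Slirp, the partner of Lrpprc, rose under HSF1 shRNA (0.22 ± 0.06, adjusted p = 0.0366). Both HSF1 shRNA calls were lost without scrambled array 1 (adjusted p = 0.08 for Ppargc1b and 0.123 for Slirp) and under several other omissions of a single array.

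The counts above depended on RPA1 shRNA array 3 and on the scaling. Without RPA1 shRNA array 3, 23 of 78 respiratory genes were called under RPA1 shRNA, 9 higher and 14 lower, where 18.5% of all genes were higher and 17.8% lower. Under HSF1 shRNA the same omission, which changes only the shared variance, gave 12 higher and 4 lower, 15.4% and 5.13%, where 14.4% of all genes were higher and 9.16% lower. Scaling each array to its median over all rows gave 12 higher and 3 lower under HSF1 shRNA, where 11.7% of all genes were higher and 5.54% lower. Quantile normalization gave 11 higher and 8 lower under RPA1 shRNA, and scaling to the median of the tested genes, a choice added after the data were seen, gave 10 and 7. Of all genes, 18.8% were higher and 13.9% lower with quantile normalization, and 16.7% and 14.8% with the added scaling. Under that last scaling 1593 of all genes rose and 1717 fell under HSF1 shRNA, beside 1971 and 1239 without it, and 2426 were higher and 2672 lower with HSF1 shRNA than with RPA1 shRNA, beside 2928 and 1935.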

How the data were processed

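The 9 RNA samples, 3 for each shRNA, were hybridised to Affymetrix Mouse Gene 1.0 ST arrays. The deposited values are log2 signals, 1 per probe set and array, made with RMA in Partek 6.5 per the submitters' processing notes; the notes give no scale, and log2 was inferred from the values. They were used as deposited. RMA shrinks differences between dim probe sets, and no detection call was used here. Genes were named from the platform annotation: 35557 rows were present, of which 12147 had no entry there and 1621 more than 1 symbol, and 21789 had a single symbol. The brightest of a gene's single-symbol rows was tested.

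limma 3.58.1 in R 4.3.3 fitted 1 mean per group to all 9 arrays (6 residual and 3.51 prior degrees of freedom), with 3 contrasts. Variances were moderated by empirical Bayes and p-values adjusted by Benjamini-Hochberg over 19938 genes, two-sided, called at an adjusted p under 0.05. Differences are given ± the standard error, with n = 3 arrays a group, and the number of arrays limits the precision. The procedure was tested on simulated data. The text names, for each comparison and complex, up to 3 genes called higher and up to 3 called lower with the largest difference, all tissue-restricted isoforms, Cox7a2l, Ndufa4 and, per pathway list, up to 2 rises and 2 falls; other names are said to be added. The genes and the 17 lists (10 pathways, 7 cell type markers) were chosen with earlier results of these data known. Same-numbered arrays of different groups did not deviate together (correlations of -0.16 to 0.09), so no pairing was used. Alternatives covered normalization, dim genes, rows per gene, the variance model, array weights, a replicate block and leaving out each array. Genes with several symbols per row were not analysed here.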

Additional observations from a re-analysis of the deposited data

How the results depend on the processing

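Across 19 alternatives no direction of a called gene was reversed. Genes called in all 20 settings were Atp5g2, Atp5k, Atp5l and Uqcrfs1 under HSF1 shRNA; Atp5g1, Atp5g2, Ndufa6, Ndufa13, Ndufb6, Ndufb10, Ndufv1 and Uqcrfs1 under RPA1 shRNA; and Atp5mpl, Ndufb6, Ndufb10 and Ndufv3 between the knockdowns. Under HSF1 shRNA the count of higher genes was 12 with median scaling, 11 with only genes above the median gene, 11 with an intensity trend and 13 with array weights. These were 15.4%, 15.3%, 14.1% and 16.7% of the respiratory genes, beside 11.7%, 18.5%, 10.5% and 15.6% of all genes tested in the same setting. Under RPA1 shRNA 11 were higher with quantile normalization and 10 with the added scaling to the tested genes, and 18 were lower with array weights. The shares were 14.1%, 12.8% and 23.1%, beside 18.8%, 16.7% and 22.6% of all genes. Between the knockdowns 5 were higher with only the 6 arrays compared, and 23 higher and 6 lower with array weights. The shares here were 6.41%, 29.5% and 7.69%, beside 10%, 23.2% and 16.5% of all genes. Complex medians moved under HSF1 shRNA to 0.14 (mean of rows), 0.15 (every row) and 0.063 (added scaling) for complex V, 0.039 (every row) for III and 0.042 (added scaling) for IV; under RPA1 shRNA to 0.068 (quantile) for IV; and between the knockdowns to 0.106 (array weights) for I, -0.016 for IV and 0.085 for V (added scaling). Their cause was not tested. Leaving out 1 array gave 3 to 12 higher and 1 to 4 lower under HSF1 shRNA, 3 to 9 and 5 to 14 under RPA1 shRNA, and 3 to 15 and 1 to 5 between the knockdowns, with complex I medians of -0.047 to 0.0079 under RPA1 shRNA and 0.044 to 0.118 between them. Over these omissions 5.74% to 14.4% of all genes were higher and 3.54% to 9.16% lower under HSF1 shRNA. Under RPA1 shRNA these shares of all genes were 11.5% to 18.5% and 11.2% to 17.8%. Between the knockdowns they were 9.52% to 18.9% and 6.36% to 13.9%. A replicate block gave 8 higher and 4 lower, 7 and 7, and 9 and 2 in the same order of comparisons. Of all genes, the shares with the block were 8.48% and 5.56%, 14.6% and 13.9%, and 13.1% and 9.03%. Under the block 9 of 10, 13 of 13 and 10 of 13 calls remained. The share of respiratory genes called exceeded that of all genes in 7 of 19 alternatives for rises under HSF1 shRNA, 2 for falls under RPA1 shRNA and 9 for genes higher in the direct comparison, and in 0 for the other 3 counts. All-gene medians stayed between -0.02 and 0.06.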

Other observations

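Pyruvate dehydrogenase and the citric acid cycle supply the respiratory chain with NADH and succinate. Pdk2, a kinase that switches off pyruvate dehydrogenase, had 9.70, 9.53 and 9.49 under HSF1 shRNA and 9.50, 9.64 and 9.24 under RPA1 shRNA, against 10.44, 10.48 and 10.34 under scrambled shRNA, without overlap. The differences were -0.85 ± 0.10 (adjusted p = 0.000702 in limma) and -0.96 ± 0.10 (adjusted p = 0.00011). Of the 4 kinases, Pdk3 rose under HSF1 shRNA (0.22 ± 0.05, adjusted p = 0.0103) and Pdk1 fell under RPA1 shRNA (-0.46 ± 0.12, adjusted p = 0.0148). In the list of 16 citric acid cycle and pyruvate dehydrogenase genes, 5 rose and 1 fell under HSF1 shRNA and 3 rose and 2 fell under RPA1 shRNA. Under HSF1 shRNA the shares were 31.2% and 6.25%, beside 9.89% and 6.21% of all genes and 15.1% and 10.9% of genes above the median. Under RPA1 shRNA they were 18.8% and 12.5%, beside 15.4% and 14.7% of all genes and 21.7% and 24.5% of genes above the median. On leaving out 1 array, 2 to 6 rose and 1 fell under HSF1 shRNA and 2 to 3 rose and 1 to 4 fell under RPA1 shRNA. Suclg2, a succinyl-CoA ligase subunit, had 9.80, 9.63 and 9.69 under HSF1 shRNA and 10.54, 10.51 and 10.44 under RPA1 shRNA, against 10.50, 10.52 and 10.62 under scrambled shRNA. The HSF1 shRNA arrays alone were lower, with a difference of -0.84 ± 0.06 (adjusted p = 7.08e-05), and differed directly from RPA1 shRNA by -0.79 ± 0.06 (adjusted p = 7.81e-05). Ogdh, the first subunit of the 2-oxoglutarate dehydrogenase complex, was higher under HSF1 shRNA (0.27 ± 0.05, adjusted p = 0.00799) and lower under RPA1 shRNA (-0.20 ± 0.05, adjusted p = 0.0157), and the direct difference was 0.47 ± 0.05 (adjusted p = 0.00038). The RPA1 shRNA call of Ogdh was lost without scrambled array 2 or 3 or RPA1 shRNA array 1 (adjusted p = 0.0512 to 0.0606).

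Of 74 mitochondrial ribosomal proteins, which translate the mitochondrially encoded subunits, 15 rose and 1 fell under HSF1 shRNA and 23 rose and 3 fell under RPA1 shRNA, with medians of 0.14 and 0.07. Under HSF1 shRNA the shares were 20.3% and 1.35%, beside 9.89% and 6.21% of all genes and 15.1% and 10.9% of genes above the median. Under RPA1 shRNA they were 31.1% and 4.05%, beside 15.4% and 14.7% of all genes and 21.7% and 24.5% of genes above the median. On leaving out 1 array, 6 to 28 rose and 1 fell under HSF1 shRNA, and 15 to 24 rose and 3 to 13 fell under RPA1 shRNA. The highest HSF1 shRNA count and the highest count of RPA1 shRNA falls were those without RPA1 shRNA array 3, where 14.4% of all genes rose under HSF1 shRNA and 17.8% fell under RPA1 shRNA. Mrpl20 rose under both (0.59 ± 0.10, adjusted p = 0.00448, and 0.55 ± 0.10, adjusted p = 0.00267) and Mrpl23 fell under both (-0.38 ± 0.07, adjusted p = 0.00767, and -0.37 ± 0.07, adjusted p = 0.00413). Of 12 ubiquinone genes, 1 rose under HSF1 shRNA and 2 rose and 1 fell under RPA1 shRNA, led by Coq10b, a ubiquinone-binding protein (0.57 ± 0.10, adjusted p = 0.00445, and 0.91 ± 0.10, adjusted p = 0.000134). Of 9 inner membrane carriers, 1 rose and 2 fell under HSF1 shRNA and 1 rose and 1 fell under RPA1 shRNA. Under HSF1 shRNA 8.33% of the ubiquinone genes and 11.1% of the carriers rose, beside 9.89% of all genes. Falls there were 0% and 22.2%, beside 6.21%. Under RPA1 shRNA 16.7% and 11.1% rose, beside 15.4%, and 8.33% and 11.1% fell, beside 14.7%. Slc25a25, a calcium-dependent ATP-magnesium and phosphate carrier, rose by 0.92 ± 0.09 under RPA1 shRNA (adjusted p = 7.24e-05), and its relative Slc25a23 fell by 0.74 ± 0.09 (adjusted p = 0.000344).

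Of the remaining marker lists, 1 of 8 epithelial markers rose under each knockdown, 1 of 6 endothelial markers under each, and 3 of 6 neural markers under each with 1 lower under RPA1 shRNA. Of 6 adipocyte markers, 1 rose under HSF1 shRNA and 1 fell under RPA1 shRNA. Under each knockdown the rises were 12.5% of the epithelial, 16.7% of the endothelial and 50% of the neural list. Of all genes, 9.89% rose and 6.21% fell under HSF1 shRNA, and 15.4% and 14.7% under RPA1 shRNA.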
